A study of Rattus norvegicus with 6 samples.

Results

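Immediate early genes and the dual-specificity phosphatases that act on the same signalling pathway were examined in the kidney, in its outer layer, the cortex. The set named 10 genes: Fos, Fosb, Jun, Junb, Egr1, Ier2, Dusp1, Dusp2, Dusp5 and Dusp6. They were chosen by name, with differences between the groups on these arrays already known, so their differences are given here as a description without p-values. A probe carrying a RefSeq transcript was matched for 9 of the 10, by 12 probes in all, and all 9 entered the 12007 genes tested of 15284 matched. No probe was matched to Fosb, which was not analysed here. Male Sprague-Dawley (Crl:CD(SD)) rats, bought at 5 weeks of age, received for 4 weeks either 1-amino-2,4-dibromoanthraquinone (ADBAQ), an anthraquinone carrying bromine and amino groups, at 1000 mg/kg/day (3 rats) or the corn oil vehicle (3 rats). RNA of each rat was hybridised to its own 1-colour Agilent array.

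Immediate early genes are switched on within minutes of a growth factor, hormone or stress signal, without new protein synthesis. The signal runs from receptors such as the EGF receptor through Ras and the kinases Raf, MEK and ERK, or through the stress kinases JNK and p38, to factors already bound at promoters, among them SRF with its ETS partners and CREB. FOS and JUN proteins pair to form AP-1, and EGR1 is a zinc finger factor. The DUSP phosphatases remove phosphate from ERK, JNK or p38 and so close a feedback loop, and several of them are themselves induced by ERK. In the kidney these genes are known for quick induction by injury and by handling of the tissue, and their transcripts are short lived.

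RefSeq promoter entries (GRCr8) were matched for 8 of the 10 genes: Fosb, Junb, Egr1, Ier2, Dusp1, Dusp2, Dusp5 and Dusp6. The last 180 bases before the start of 5 of them are shown because they hold letters that match the sites these factors are known to bind. Capitals mark the CArG box bound by SRF in Egr1 and Dusp5, the cyclic AMP response element TGACGTCA bound by CREB in Ier2 and Dusp1, and the EGR site GCGNGGGCG in Dusp2 and, on the opposite strand, in Dusp5.
Egr1 (chr18:26736898-26737077, plus strand): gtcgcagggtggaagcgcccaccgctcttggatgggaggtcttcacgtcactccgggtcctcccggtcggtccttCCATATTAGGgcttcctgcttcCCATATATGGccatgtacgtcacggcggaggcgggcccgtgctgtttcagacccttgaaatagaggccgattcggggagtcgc
Dusp5 (chr1:262543594-262543773, plus strand): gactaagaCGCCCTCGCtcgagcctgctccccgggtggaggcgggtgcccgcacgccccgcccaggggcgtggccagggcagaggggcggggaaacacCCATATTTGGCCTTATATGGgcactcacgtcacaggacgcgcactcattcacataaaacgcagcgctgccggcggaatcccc
Ier2 (chr19:40399193-40399372, plus strand): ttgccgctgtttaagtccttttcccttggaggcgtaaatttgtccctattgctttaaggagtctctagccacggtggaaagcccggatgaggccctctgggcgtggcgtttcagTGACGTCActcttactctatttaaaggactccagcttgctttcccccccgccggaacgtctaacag
Dusp1 (chr10:17184673-17184852, plus strand): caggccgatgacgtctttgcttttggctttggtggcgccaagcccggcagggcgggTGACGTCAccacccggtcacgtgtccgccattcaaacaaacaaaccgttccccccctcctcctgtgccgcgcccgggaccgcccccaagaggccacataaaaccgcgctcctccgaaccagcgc
Dusp2 (chr3:135009456-135009635, plus strand): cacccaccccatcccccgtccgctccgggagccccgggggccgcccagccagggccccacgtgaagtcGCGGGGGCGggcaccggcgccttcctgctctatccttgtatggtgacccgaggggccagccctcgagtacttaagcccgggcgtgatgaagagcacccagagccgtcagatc

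Every motif was searched on both strands unless said otherwise. CArG boxes were found in 2 of the 8 entries, Egr1 and Dusp5, and in 1.64% of all 27457 promoter entries. In Egr1 they were CCATATTAGG, from base -105, and CCATATATGG, from base -83, counted back from the start. In Dusp5 they were CCATATTTGG, from base -82, and CCTTATATGG, from base -72, which lie end to end. An ETS core, GGAA, stood within 20 bases of a CArG box in both genes and in 0.783% of all entries. The full element TGACGTCA was held by Ier2 and Dusp1 and by 1.91% of entries, and its core TGACG, which the full element contains, by 6 of the 8 (Junb, Egr1, Ier2, Dusp1, Dusp2 and Dusp5) and by 22% of entries. The EGR site was held by 2 of the 8 and 5.29% of entries, the AP-1 site TGANTCA by 0 and 7.33%, and TATAAA, on the gene's own strand, by Junb alone and 9.08%. These matches describe letters in entries of 300 bases and were not tested for binding.

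On the arrays, Dusp2 was lower after ADBAQ by 0.92 on the log2 scale and Dusp5 higher by 0.41, without overlap between groups. Dusp6 was lower by 0.56, with overlap between groups. The AP-1 genes Fos, Jun and Junb were higher by 0.10 to 0.26 and overlapped between groups except for Junb. Egr1 (-0.32), Dusp1 (-0.25) and Ier2 (-0.022) overlapped too. In limma's test with Benjamini-Hochberg adjustment over all genes, 1 of the 9 was called, Dusp2. Over all genes, 0.291% were called, 0.0666% in the lower and 0.225% in the higher direction. The 3 ADBAQ arrays lay wholly below the 3 corn oil arrays in 1 member (Dusp2), against 14.8% of all genes, and wholly above them in 2 (Junb and Dusp5), against 12.7%. The median difference over the 9 was -0.022, and over all genes -0.011. Because the members were chosen with these differences known, nothing is read from the counts. Each group was read on 1 slide and in 1 scan of its own, so the treatment cannot be told apart from the slide or the scan. In all, 27 genes were called higher and 8 lower; the split was 67 and 78 with normexp background correction and 1027 and 54 without scaling between arrays.

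**Figure D1:**
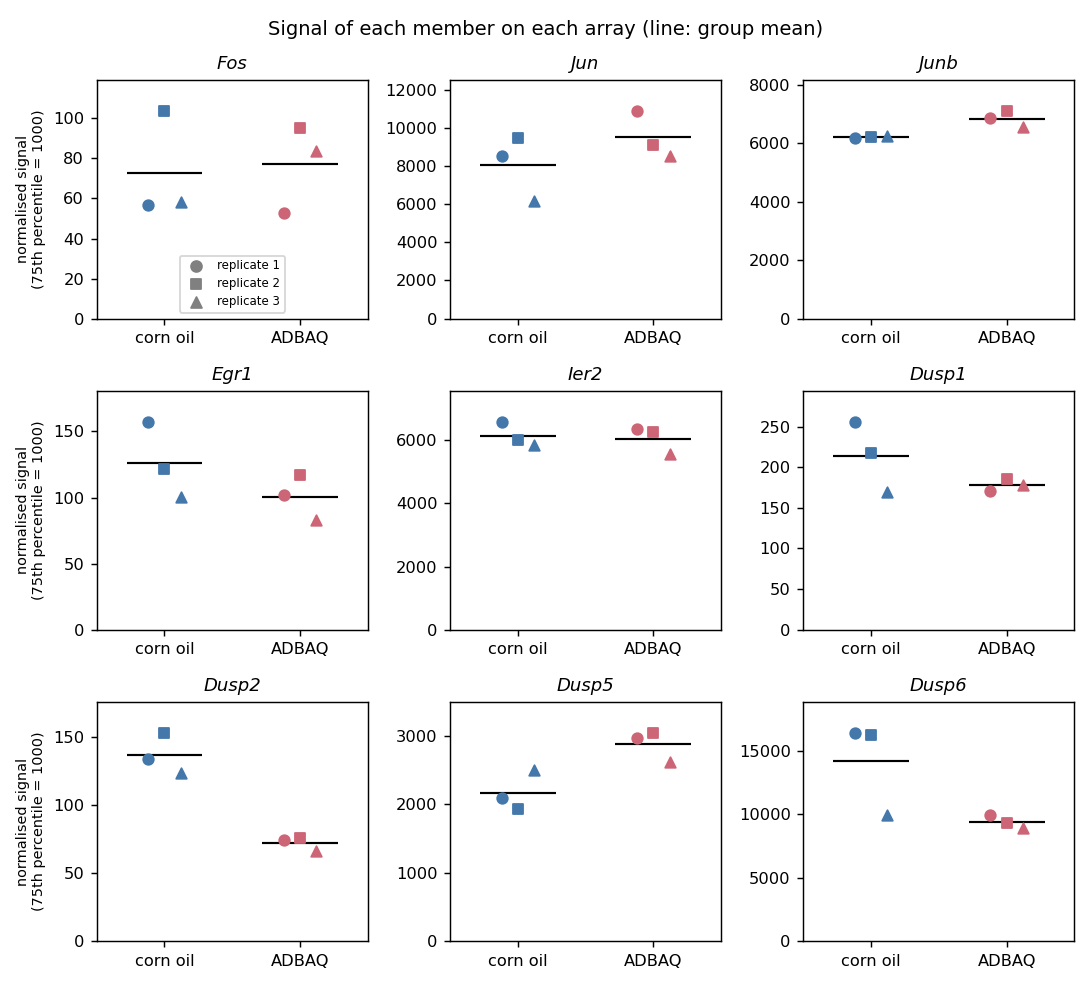
Normalised signal (array 75th percentile set to 1000, linear axes from 0) of the 9 members on the 3 corn oil (blue) and 3 ADBAQ (red) arrays. Symbols mark the replicate and lines the group means. The groups are apart for Dusp2, Junb and Dusp5, and corn oil replicate 3 lies with the ADBAQ arrays for Dusp6 and Dusp1.

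Signals below are scaled so that the 75th percentile of each array is 1000, and they are compared within a gene only. Fos, which encodes the AP-1 partner of JUN, read 56.8, 103.7 and 58.1 on the corn oil arrays and 52.9, 95.3 and 83.9 on the ADBAQ arrays. In corn oil replicate 2 was high and the others low, in ADBAQ replicate 1 was low and the others high, and the groups overlapped. The difference was 0.10 ± 0.32 SE (log2, n = 3 per group), the widest error of the 9. A dimmer Fos probe did not overlap between groups, with a mean of 29.4 ± 3.39 (SD, n = 3) in corn oil and 38.3 ± 0.996 in ADBAQ, so the probes of this gene gave different pictures.

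Jun, the usual partner of FOS, read 8504, 9447 and 6176 in corn oil and 10887, 9124 and 8530 in ADBAQ. Corn oil replicate 3 was the lowest and ADBAQ replicate 1 the highest, and the groups overlapped. The difference was 0.26 ± 0.18 SE, and a second probe gave 0.24 with the same overlap. Junb, a JUN relative, was the least variable member in corn oil, with 6185, 6196 and 6244, and read 6841, 7100 and 6536 in ADBAQ. All ADBAQ values were the higher ones, by 9.88% on average (0.14 ± 0.057 SE). A dimmer Junb probe had a mean of 94.0 ± 11.2 (SD, n = 3) in corn oil and 119.2 ± 16.1 in ADBAQ, and there the groups overlapped, as they did when the probes were averaged.

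Egr1, the zinc finger factor whose promoter entry is shown with its CArG matches, read 157.1, 121.7 and 100.4 in corn oil and 101.8, 117.3 and 82.9 in ADBAQ. The groups overlapped, and the difference was -0.32 ± 0.20 SE. Ier2, a small nuclear protein induced with the same kinetics, read 6567, 6001 and 5829 in corn oil and 6332, 6246 and 5549 in ADBAQ. Its difference, -0.022 ± 0.082 SE, was the smallest of the members.

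Among the nuclear phosphatases, Dusp1 (MKP-1), which acts mainly on JNK and p38, read 255.6, 217.9 and 169.2 in corn oil and 171.0, 185.7 and 177.9 in ADBAQ. Corn oil ranged more widely (SD 43.3, n = 3) than ADBAQ (SD 7.38), and corn oil replicate 3 lay under all ADBAQ values. The difference was -0.25 ± 0.15 SE.

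Dusp2 (PAC-1), known best from activated lymphocytes, read 133.7, 152.7 and 123.6 in corn oil and 74.2, 75.9 and 66.0 in ADBAQ. Every ADBAQ value lay well under the lowest corn oil value. The group means were 136.6 ± 14.8 (SD, n = 3) and 72.0 ± 5.29, a difference of -0.92 ± 0.10 SE, or 1.89-fold. The probe was well above background on 6 of 6 arrays and was the only one of the gene. The call was lost whichever 1 array was left out, with the replicate number as a block and without the detection filter, while the difference under leaving out 1 array ran from -0.99 to -0.84. Normexp background correction gave -0.55, and the gene was called there.

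Markers of lymphocytes were read beside Dusp2. The T and NK cell list was tested for 12 of 14 genes and 0 were called, with 0 at an unadjusted p under 0.05. Their summed normalised signal was 3129 to 3853 in corn oil and 2616 to 3328 in ADBAQ, ranges that overlap, and 10 of the 12 had negative differences. Cd3e, a chain of the T cell receptor complex, had -0.78 ± 0.33 SE (adjusted p = 0.27) and Cd3g, another chain, -0.75 ± 0.35 (adjusted p = 0.31), both by limma's test. These were the most negative of the list, and a further chain, Cd3d, had -0.16. The list median was -0.19, and Cd8a (0.13) and Klrd1 (0.097) were positive. Cd3d, Cd3e and Cd3g were well above background on 6 of 6 arrays, whereas Cd5 was so on 3 and Cd28 on 2. Of 6 B cell markers 3 were tested, and their sum was 886.0 to 1132 in corn oil and 1079 to 1339 in ADBAQ. The part of lymphocytes in the Dusp2 difference was not tested. In whole tissue, fewer cells of a type and less RNA per cell cannot be told apart.

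Dusp5, a nuclear phosphatase specific for ERK, had the opposite direction to Dusp2. It read 2095, 1930 and 2500 in corn oil and 2970, 3045 and 2628 in ADBAQ, and the groups did not overlap. The difference was 0.41 ± 0.12 SE, or 1.33-fold, and it was not called. With normexp background correction the groups overlapped.

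Dusp6 (MKP-3), the cytoplasmic phosphatase of ERK and a common readout of ERK activity, read 16433, 16262 and 9936 in corn oil and 9949, 9318 and 8902 in ADBAQ. Corn oil replicates 1 and 2 lay far above the other 4 arrays, and corn oil replicate 3 lay just under the highest ADBAQ array. The difference was -0.56 ± 0.21 SE, and it ran from -0.80 to -0.44 when 1 array was left out. Dusp6 was called in 0 of 15 alternatives.

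**Figure D2:**
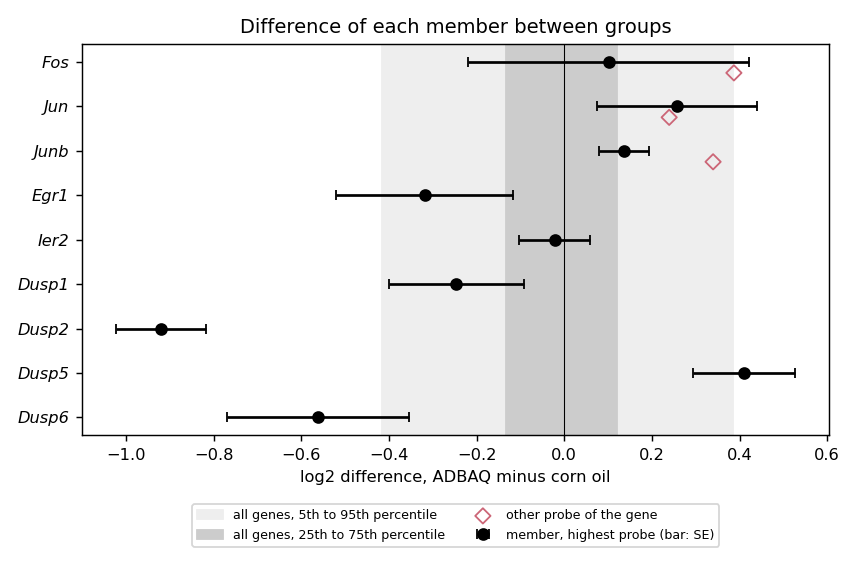
Log2 difference (ADBAQ minus corn oil) of each member with its SE (black), other probes of the same gene (open diamonds), and the middle of all 12007 genes tested (grey bands, 25th to 75th and 5th to 95th percentile). Dusp2 (-0.92) and Dusp6 (-0.56) lie under the 5th percentile of -0.42, and Dusp5 (0.41) lies just over the 95th of 0.39. The members were chosen with these differences known, so nothing is read from these positions.

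Of the 9 members, 7 varied between rats of the same group by more than the median of all genes. The median within-group SD was 0.22 on the log2 scale over the 9, against 0.12 over all genes, and 23.8% of genes had an SD at or above 0.22. Fos had the largest (0.47), reached by 5.56% of genes, followed by Dusp6 (0.30) and Egr1 (0.29). The other 2, Ier2 (0.098) and Junb (0.043), varied less than most genes: 59.9% and 93.5% of genes reached these values.

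For Fos, the most variable member, corn oil replicate 2 (0.57) and ADBAQ replicate 1 (-0.51) deviated most from their group means. Corn oil replicate 3 deviated by -0.27 there. Corn oil replicate 3 was the lowest corn oil array in 6 of the 9 members (Jun, Egr1, Ier2, Dusp1, Dusp2 and Dusp6), and it was the lowest in 31.8% of all genes. The median difference of this array from the mean of the other corn oil arrays was -0.40 over the members, where the median over all genes was 0.0031. Dusp6 had -0.72, Jun -0.54, Dusp1 -0.48 and Egr1 -0.46, while Dusp5 had 0.31. Of 27 other immediate early genes tested, 16 were lowest on this array, with a median of -0.19. Among these, singled out after their values were seen, Zfp36, which binds AU-rich messenger RNA, had -1.26, the orphan receptor Nr4a1 -1.10, and the matricellular genes Ccn1 and Ccn2 -0.94 and -0.87. Without corn oil replicate 3 the median within-group SD of the members was 0.11, and 4 members lay wholly lower in ADBAQ (Egr1, Dusp1, Dusp2 and Dusp6), against 19.8% of all genes. Those wholly higher were again Junb and Dusp5, against 17.3%. Corn oil replicate 3 was singled out after its low values in these members were seen. A smaller SD and more members wholly lower without it follow from that choice, so nothing is read from them.

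ADBAQ replicate 3 was the lowest ADBAQ array in 7 of the 9 members and in 30.8% of all genes, and ADBAQ replicate 2 the highest in 6 and in 34.1%.

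**Figure D3:**
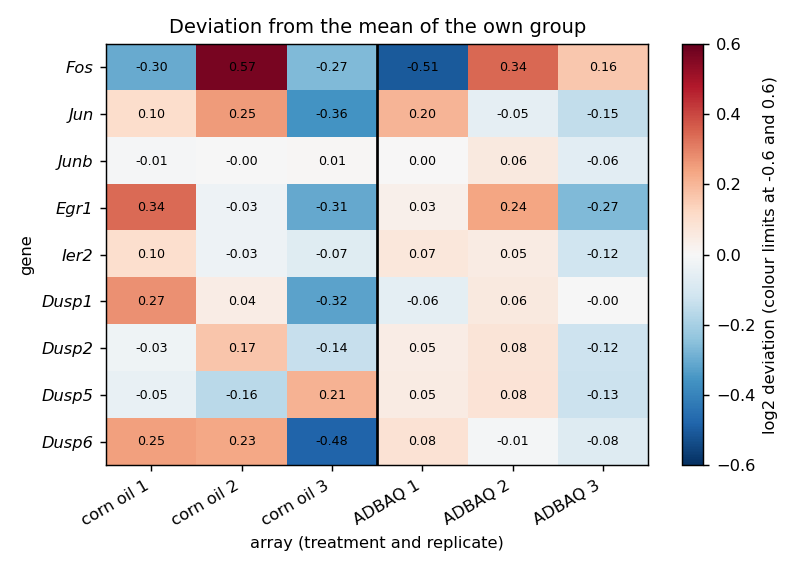
Log2 deviation of each member from the mean of its own group on each array; red is higher, blue lower, and the black line parts the groups. Corn oil 3 is blue in all rows except Junb (0.01) and Dusp5 (0.21), with -0.48 for Dusp6.

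The genes outside the set whose deviations from the group means followed the members' mean profile most closely over the 6 arrays were Rbm24 (Pearson r = 0.99), Dlx2 (0.99), Lrrn1 (0.98), Dlgap2 (0.98), Donson (0.98) and Fndc1 (0.98). They were the top 6 of 2857 genes with a spread at least that of the median member, and the r values rank likeness only. The r of the members themselves ran from -0.22 (Dusp5) to 0.91 (Egr1). Each member is part of the mean profile, so these values cannot be set beside those of outside genes.

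Upstream and downstream genes were taken from 9 lists holding 128 tested genes, of which 0 were called and 25 (19.5%) had an unadjusted p under 0.05. Over all genes, 19.4% had such a p. The ADBAQ arrays lay wholly above or below the corn oil arrays in 4 and 1 of the 17 receptors and ligands, 2 and 5 of the 20 genes of the Ras and ERK cascade, and 1 and 4 of the 16 JNK and p38 genes. They did so in 0 and 4 of the 11 ERK feedback genes, 3 and 2 of the 27 immediate early genes and 0 and 3 of the 13 phosphatases. The counts were 0 and 1 of the 12 SRF and CREB regulators, 1 and 2 of the 9 AP-1 partners and 1 and 2 of the 8 decay factors. Some genes stand on more than 1 list and count in each. Fosl2, Jund, Atf3 and Maff are on the immediate early and AP-1 lists, and Zfp36 on the immediate early and decay lists. Over all genes the shares were 12.7% and 14.8%. Differences named below are therefore values that did not pass limma's adjusted threshold. Intensity-dependent variances called 4 of the 128 (Ier5, Nrg1, Egfr and Mapkapk2) and normexp 3 (Ier5, Nrg1 and Egfr).

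At the top of the cascade, 17 of 20 receptors and ligands were tested, with 2 higher and 3 lower at an unadjusted p under 0.05. Egfr, the receptor for EGF, read 1381, 1664 and 1588 in corn oil and 951.4, 1014 and 899.6 in ADBAQ. The groups were well apart, with -0.69 ± 0.092 SE (adjusted p = 0.057), and a second Egfr probe gave -0.84. Nrg1, a ligand of ERBB3 and ERBB4, read 2185, 2068 and 1703 in corn oil and 3203, 3172 and 4006 in ADBAQ. It was higher on every ADBAQ array, with 0.80 ± 0.14 SE (adjusted p = 0.084), and the other Nrg1 probes gave 0.55 and 0.57. The list median was -0.056.

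In the Ras and ERK cascade itself, 20 genes were tested of 23, 1 was higher and 2 lower at an unadjusted p under 0.05, and the median was 0.014. The MEK gene Map2k2 had -0.18 ± 0.059 SE and Nf1, which switches Ras off, -0.16 ± 0.055 (adjusted p = 0.19 and 0.21 by limma), though a second Nf1 probe gave 0.055. For the JNK and p38 cascades, 16 of 21 were tested, 2 were lower and 0 higher at that p, and the median was -0.0081. Mapkapk2 and Mapkapk3, kinases that p38 activates, had -0.31 ± 0.058 and -0.22 ± 0.087 SE (adjusted p = 0.10 and 0.24). A second Mapkapk2 probe gave -0.11, and a second Mapkapk3 probe gave -0.033 with overlap between groups. Among SRF and CREB regulators, 0 of 12 tested reached an unadjusted p of 0.05. Srf itself had -0.095 ± 0.075 SE (chosen after its value was seen), Atf1 -0.11 ± 0.050 and Crem 0.18 ± 0.12 (adjusted p = 0.52, 0.31 and 0.46). Probes disagreed in sign for Srf (0.069 and -0.30 for the others), for Atf1 (-0.044 and 0.17) and for Crem, where 1 of the other probes gave -0.033.

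Feedback genes of ERK, which like Dusp6 are induced by the pathway and mostly restrain it, had the lowest median of the 9 lists, -0.46. The lists were chosen with earlier results of these data known, so nothing is read from this rank. The feedback genes also varied widely between rats of the same group, with a median within-group SD of 0.32, against 0.12 over all genes. Of 11 tested of 13, 7 had negative and 4 positive differences, and 3 had an unadjusted p under 0.05, all lower. The ADBAQ arrays lay wholly below the corn oil arrays in 4, against 14.8% of all genes, and wholly above in 0, against 12.7%. With only genes well above background on all 6 arrays, 9 feedback genes were left, 5 of them negative, with a median of -0.36. Of these, 3 lay wholly lower, against 15.0% of all genes. Spry4, a Sprouty inhibitor, read 711.2, 638.2 and 531.6 in corn oil and 442.1, 475.8 and 443.4 in ADBAQ. The groups were apart (-0.46 ± 0.12 SE, adjusted p = 0.14), although of the other Spry4 probes 1 gave -0.44 with overlap and 1 gave 0.049. Etv5, an ETS factor, read 5131, 6062 and 11222 in corn oil and 2775, 2509 and 4528 in ADBAQ. Corn oil replicate 3 was the highest there, unlike in Dusp6. The difference was -1.16 ± 0.36 SE (adjusted p = 0.18), and a second probe gave -0.54.

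The others without overlap, named after their values were seen, were Etv1, a second ETS factor (-0.52 ± 0.17 SE, adjusted p = 0.19), and Spred2, an inhibitor of Raf activation (-0.61 ± 0.25, adjusted p = 0.26). All 4 Etv1 probes had negative differences without overlap, from -0.52 to -0.40. Spred2 was dim, well above background on 5 of 6 arrays. The 4 positive differences were those of Spry2 (0.12), Spry3 (0.19), Spred1 (0.080) and Phlda1 (0.022), although a second Spry3 probe gave -0.30 and a second Phlda1 probe -0.043. Spry1 and Spred3 were not tested. The list median was -0.27 with normexp and -0.30 without corn oil replicate 2.

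**Figure D4:**
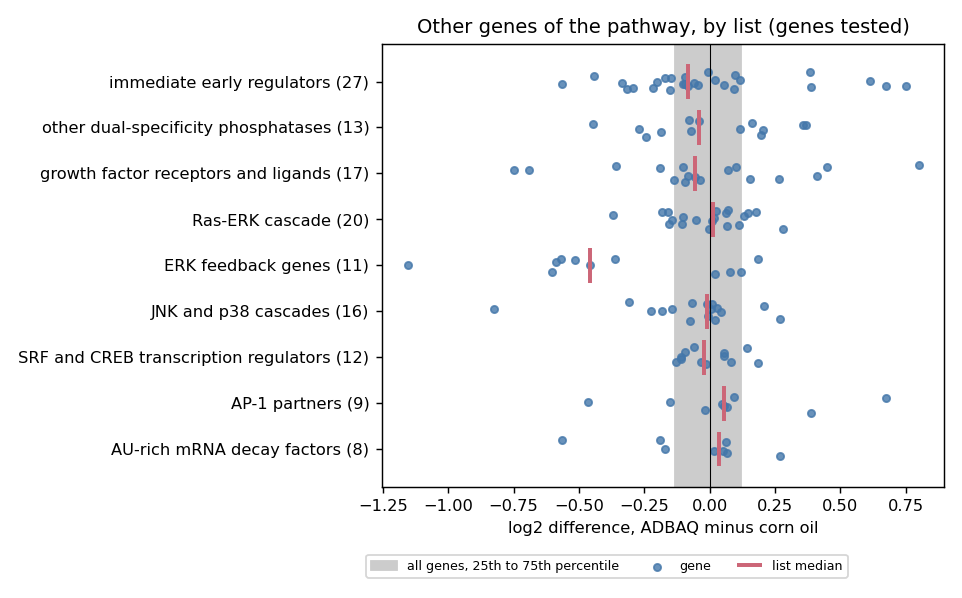
Log2 difference (ADBAQ minus corn oil) of each tested gene (blue) in the 9 pathway lists, with the list median (red) and the 25th to 75th percentile of all genes (grey). The ERK feedback genes have the lowest median (-0.46), while the medians of the other lists lie between -0.083 and 0.054. The lists were chosen with earlier results of these data known, so nothing is read from this rank.

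Of the other immediate early genes, 27 of 31 were tested, with 4 higher and 1 lower at an unadjusted p under 0.05 and a median of -0.083. Ier5, a relative of Ier2 that is also stress induced, read 3715, 3507 and 3850 in corn oil and 5680, 6112 and 5166 in ADBAQ. It was higher on every ADBAQ array, with 0.61 ± 0.082 SE (adjusted p = 0.058), and the other Ier5 probes gave 0.96 and 0.63. Mcl1, a survival protein with a short-lived transcript, had -0.29 ± 0.064 SE (adjusted p = 0.12). Among AP-1 partners, 9 of 11 were tested and the median was 0.054. Jdp2, a repressor of AP-1, had -0.47 ± 0.13 SE and Maff, a small MAF protein, 0.39 ± 0.14 (adjusted p = 0.16 and 0.23).

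The other dual-specificity phosphatases had differences from -0.45 to 0.37. Of 20 listed 13 were tested, with 1 higher and 3 lower at an unadjusted p under 0.05 and a median of -0.041. Dusp22, an atypical phosphatase acting in JNK signalling, had -0.24 ± 0.056 SE and Dusp18 -0.19 ± 0.055 (adjusted p = 0.12 and 0.17). Dusp4, the close relative of Dusp2, had 0.37 ± 0.70 SE, with 127.5 on ADBAQ replicate 3 and 25.0 to 57.1 on the other arrays, and was named after its value was seen. Among factors of AU-rich messenger RNA decay, 8 of 11 were tested with a median of 0.036. Cnot1, the scaffold of the deadenylase, had -0.17 ± 0.059 SE and the stabilising protein Elavl1 -0.19 ± 0.065 (adjusted p = 0.21 for each). Of the other Cnot1 probes, 1 gave -0.19 and 1 gave 0.013.

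The tissue label was checked against markers. All 10 proximal tubule markers and all 8 glomerular markers were well above background on 6 of 6 arrays, with 0 called. Their median differences were -0.031 and 0.011. The proximal tubule sum was 1965250 to 1991160 in corn oil and 1810360 to 1857800 in ADBAQ, without overlap. The 7 red cell markers tested were all higher and 4 were called, with sums of 167698 to 184229 in corn oil and 331270 to 384500 in ADBAQ. The count called was 1 without any 1 corn oil array, 2 without ADBAQ replicate 2, 3 without either of the other ADBAQ arrays, 0 with the replicate block and 7 without scaling. Myeloid markers summed to 88392 to 99094 in corn oil and 101471 to 110633 in ADBAQ, with 0 of 10 called. The part of these cell types in the members' differences was not tested. Smooth muscle and pericyte markers summed to 19747 to 20813 in corn oil and to 17820 to 20584 in ADBAQ, with 0 of 6 called. All 6 had negative differences (median -0.25). Wholly lower in ADBAQ were 4 of them and 4 of the 10 proximal tubule markers, against 14.8% of all genes. For endothelium, the thick limb and distal tubule, and the collecting duct, the sums overlapped between groups and 0 markers of 7, 5 and 8 were called. The 75th percentile of the signal was 1126 to 1177 on corn oil and 1279 to 1307 on ADBAQ arrays. The share of probes that Feature Extraction marked as well above background ran from 69.0% to 72.3%. With 3 arrays per group, precision is limited by that number.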

How the data were processed

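Cy3-labelled renal cortex RNA of 3 corn oil and 3 ADBAQ rats was read on 1 array each. Per the file headers, the arrays were extracted with background subtraction by Feature Extraction 10.7.1.1; the submitters' processing notes say 10.7. The deposited values used were processed signal intensity, median signal and background intensity, and flags per spot (other units), per the file headers. The authors' deposited series-wide values held each array as a ratio to 1 constant, within 0.0858% of the 75th percentile, on a linear scale and not centred, with column medians of 0.111, 0.113, 0.112, 0.113, 0.114 and 0.111. The origin of the constant is not stated.

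Of 62976 spots, 1319 controls were left out, and so were 73 probes with outlier flags on any array. Signals were put on a log2 scale and centred on each array's 75th percentile. A probe was kept if 1 group had it well above background on each of its 3 arrays. Accessions were matched to RefSeq genes (GRCr8, names only) for 27460 of 61657 probes (44.5%), and the probe with the highest mean stood for a gene. Groups were compared over 12007 genes with limma 3.58.1 (R 4.3.3, data.table, version 1.17.8; lmFit, eBayes, two-sided, Benjamini-Hochberg at 0.05); SE is from that fit. Promoter motifs and figures used Python 3.11.15, pandas 2.3.3 and matplotlib 3.10.9. A 3 against 3 permutation cannot go below p = 0.10.

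Members and lists were chosen with earlier results of these data known. Named genes were all members, per pathway list any called genes (if none, the 2 ranked first by p) and the 6 most alike in deviation. The labels describe replicates as separate animals. The script was tested on simulated data. Same-numbered replicates deviated together at r = 0.0094, 0.16 and 0.035. The limit set for this check was 0.1, and replicate 2 was over it. The main fit used no pairing, and the replicate block is among the alternatives. The alternatives were normexp (offset 50, on the median signal, since no mean signal was used here), no scaling, quantile normalization, the deposited table, the mean of probes, other detection filters, an intensity trend with robust variances, the replicate block, leaving out each array, and a shorter promoter window.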

Additional observations from a re-analysis of the deposited data

How the results depend on the processing

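Of the 9 member differences, 7 (Jun, Junb, Egr1, Dusp1, Dusp2, Dusp5 and Dusp6) kept their sign in the 11 alternatives that recompute the difference; the other 4 (both detection filters, the intensity trend and the replicate block) leave it as it is by construction. Fos ran from -0.071 to 0.39 and Ier2 from -0.15 to 0.14. Without scaling, the median of all genes moved from -0.011 to 0.15 and that of the members to 0.14. The count of members called was 3 without scaling (Dusp2, Junb and Dusp5), 0 with the replicate block and likewise 0 with no filter on detection; it was 0 to 0 when 1 array was left out. The members without overlap numbered 3 to 6 when 1 array was left out, 1 to 4 of them lower and 2 to 3 higher. They numbered 6, with 4 lower, without corn oil replicate 3, and 2 were lower without ADBAQ replicate 1. With 1 array left out, 18.2% to 22.5% of all genes lay wholly lower and 15.7% to 18.4% wholly higher. The members wholly higher numbered 1 with normexp and 1 with the mean of probes, against 13.7% and 13.0% of all genes. Over all genes, limma called 35 (27 higher, 8 lower). It called 145 (67 and 78) with normexp, 1081 (1027 and 54) without scaling, 156 (72 and 84) with the intensity trend, 0 (0 and 0) with the replicate block (2266 at an unadjusted p under 0.05), 4 lower with no filter on detection, and 9 to 35 (8 to 27 higher, 1 to 10 lower) when 1 array was left out, the count being 9 without ADBAQ replicate 2 and 16 without corn oil replicate 1. Of the pathway lists, 3 genes were called with normexp, 9 without scaling, 4 with the intensity trend and 0 to 1 when 1 array was left out (Ccn2, lower, without corn oil replicate 3). The ERK feedback median was -0.27 with normexp, -0.29 without scaling and -0.53 to -0.30 when 1 array was left out. The feedback genes wholly lower numbered 2 without scaling, where 3.24% of all genes lay wholly lower. In the main fit they numbered 4, against 14.8% of all genes. In the 100 bases before the start, TGACGTCA was held by 1 member and the EGR site by 0. Leaving out the scaling moves all genes of an array by the same amount, by construction. The cause of these changes was otherwise not tested. Dim probes, such as those of Fos, Egr1 and Dusp2, rest on a small signal over background. No slide term could be fitted, since each slide held 1 group.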
